A study of Mus musculus with 2 samples.

Results

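Transcripts of 10 genes known as targets of FOXO transcription factors, which respond to fasting and insulin, were compared between 2 pools of mouse liver RNA. The genes are Igfbp1, Irs2, Insr, Sesn1, Sesn3, Ccng2, Txnip, Depp1, Trib1 and Pdk4. They are 10 of 19938 genes that the array named, and all 10 were measured. Each gene was represented by 1 probe set, here called a probe, chosen by the highest mean level over both arrays among the probes annotated to that gene alone. The list itself was drawn up with differences from these same arrays known, so its values are described and not tested.

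The wild-type pool and a pool labelled FHL2-/- each held RNA of 3 male mice aged 10 to 11 weeks, on a Hybrid Black Swiss/129-SV/J background, and each was hybridised to 1 array. The labels do not say which part of Fhl2, which encodes a LIM-domain cofactor of transcription factors, was deleted, whether the mice were fed or fasted, or at what hour they were killed. Each mouse gave left-lobe liver, rinsed free of blood and frozen. With 1 array per group there is no spread between animals, no test was possible, and every difference is one between these pools. The Fhl2 probe read 5.30 in wild-type and 5.33 in the other RNA on the log2 scale, under the level at which genes were counted, so its probe does not settle the genotype. The second pool is therefore called the knockout-labelled pool.

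FOXO proteins are transcription factors that insulin holds in check. When insulin binds its receptor, the kinase AKT phosphorylates FOXO, which then leaves the nucleus. In fasting, FOXO returns to the nucleus and turns on genes that spare glucose, slow growth and restore sensitivity to insulin. Igfbp1, Irs2 and Insr belong to the hormone side of this circuit. Sesn1, Sesn3, Depp1 and Ccng2 are tied to nutrient stress, autophagy and cell cycle arrest, and Txnip, Pdk4 and Trib1 to the handling of glucose and lipid.

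The DNA next to the start of these genes is shown first, because FOXO factors are known to bind the letters GTAAACA, called the forkhead motif here, and the related letters CAAAACA, the core of what is known as the insulin response sequence. RefSeq promoter windows on build GRCm38.p6, reaching from 250 bases before to 50 bases after an annotated start, were matched by symbol for 8 of the 10 genes, which gave 9 windows since Sesn1 has 2 starts. Insr and Trib1 had no window. The stretches below lie upstream of the start and run 5′ to 3′ along the gene, with matches to either motif, or to the E-box CACGTG, in capitals on whichever strand they lie. Igfbp1 is shown for its insulin response letters and Depp1 because it had the largest difference between the pools.

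Igfbp1, chr11:7197537-7197786, plus strand: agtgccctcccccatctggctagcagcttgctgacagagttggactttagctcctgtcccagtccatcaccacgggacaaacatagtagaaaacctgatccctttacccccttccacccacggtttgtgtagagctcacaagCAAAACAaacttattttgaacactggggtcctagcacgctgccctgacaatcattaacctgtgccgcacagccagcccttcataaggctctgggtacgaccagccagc
Depp1, chr6:116650434-116650683, plus strand: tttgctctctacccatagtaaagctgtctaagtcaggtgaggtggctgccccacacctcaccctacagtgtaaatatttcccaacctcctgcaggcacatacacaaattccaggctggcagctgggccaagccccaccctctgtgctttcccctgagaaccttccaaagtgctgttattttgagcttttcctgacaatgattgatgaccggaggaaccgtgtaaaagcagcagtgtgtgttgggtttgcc

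Igfbp1 carried CAAAACA 108 to 102 bases before its start. None of the 3 motifs was present in the Depp1 window, which says only that these exact letters are not there. Variants of the motifs were not searched in any window, so none is marked in Igfbp1, Depp1 or the others. The next stretches are those of Irs2, Ccng2 and Txnip, shown for their matches, and of Pdk4 as one without a match.

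Irs2, chr8:11008930-11009029, minus strand: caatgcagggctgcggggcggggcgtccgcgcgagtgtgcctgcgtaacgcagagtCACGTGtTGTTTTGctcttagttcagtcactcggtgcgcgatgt
Ccng2, chr5:93267473-93267572, plus strand: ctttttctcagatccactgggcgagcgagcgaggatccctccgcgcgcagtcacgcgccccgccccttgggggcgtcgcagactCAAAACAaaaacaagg
Txnip, chr3:96557797-96557876, plus strand: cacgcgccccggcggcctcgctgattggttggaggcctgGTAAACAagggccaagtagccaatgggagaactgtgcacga
Pdk4, chr6:5496279-5496378, minus strand: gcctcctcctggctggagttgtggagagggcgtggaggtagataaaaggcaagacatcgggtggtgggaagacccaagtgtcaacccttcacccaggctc

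In Irs2 the insulin response letters lay on the opposite strand, at 37 to 31 bases before the start, with an E-box beside them at 44 to 39 bases before it. Ccng2 carried the insulin response letters 16 to 10 bases before its start. Txnip carried the forkhead letters 121 to 115 bases before its start. One of the 2 Sesn1 windows held the forkhead letters on the opposite strand, 23 to 29 bases after the start, and Sesn3 and Pdk4 held no match. Counted over windows and both strands, 3 of the 9 held CAAAACA, 2 held GTAAACA and 1 held CACGTG. Over all 32851 windows of the same length the shares were 6.28%, 3.65% and 7.15%. The motifs do not contain each other, and a match describes letters, not binding.

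**Figure D1:**
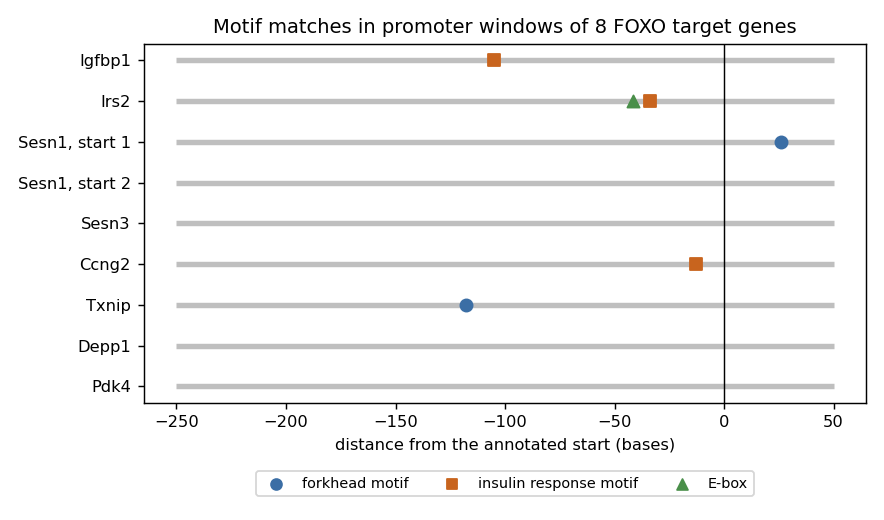
Matches to the forkhead, insulin response and E-box motifs by distance from the annotated start, in bases, in the 9 promoter windows of 8 FOXO target genes; grey bars are the windows. Matches lie in 5 windows, 4 of them upstream of the start, and Depp1, Sesn3, Pdk4 and 1 start of Sesn1 have none.

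The 10 genes lay on both sides of 0. Depp1 was 1.71-fold lower in the knockout-labelled pool, 4 other genes (Igfbp1, Ccng2, Pdk4 and Irs2) were lower by small amounts, 3 (Trib1, Insr and Txnip) were higher by small amounts, and the sestrins Sesn1 and Sesn3 were within probe error of 0. Differences are given as knockout-labelled minus wild-type on the log2 scale, where 0.58 is 1.5-fold. They ran from -0.78 to 0.32, with a median of -0.10 and an SD of 0.32 over the 10 genes. The 11924 genes past the level filter, a mean of at least 5.44 on the log2 scale, had a median of 0.04. All 10 genes lay above this level in both pools, with wild-type levels of 7.36 to 10.04 and knockout-labelled levels of 7.13 to 9.93.

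Above 0 were 3 of the 10, where 59.5% of all genes past the filter were above 0. This count became 5 on bringing the arrays to 1 common median, which adds 0.04 to every difference and turns Sesn1 and Sesn3 to small positive values. The same shift raises the median of all genes from 0.04 to 0.08, so the share of 59.5%, taken before it, does not apply to the count of 5. At least 1.5-fold lower was 1 of the 10, Depp1, beside 0.335% of all genes, and at least 1.5-fold higher were 0 of the 10, beside 0.621%. Of all genes past 1.5-fold, 64.9% were higher, or 75% after the common median shift, 58.3% after lowess removal of the trend on level and 53.5% without the level filter.

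**Figure D2:**
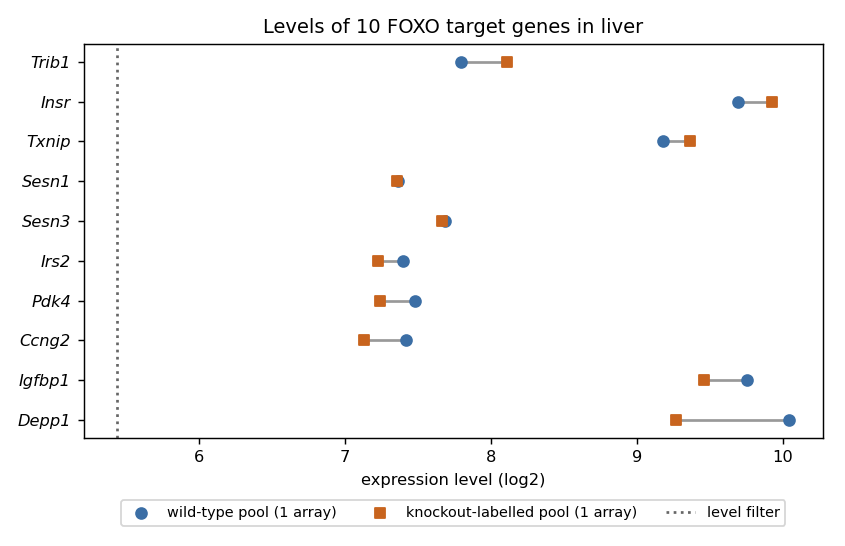
Expression level on the log2 scale of each gene in the wild-type pool (circles) and the knockout-labelled pool (squares), 1 array each, with a dotted line at the level filter of 5.44. Depp1 has the widest gap, from 10.04 to 9.27, and the symbols of Sesn1 and Sesn3 lie on top of each other.

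The only repeat measurement on these arrays is that of several probes for 1 gene. Their differences had an SD of 0.143 over 660 genes with 1809 probes, which is an error of the probe and covers neither animals nor hybridisations. Lower by more than this SD were 5 of the 10 genes, beside 15% of all genes, and higher by more than it were 3, beside 25.2%. Within it were the other two, Sesn1 and Sesn3. Only Depp1, Trib1 and Igfbp1 lay beyond 0.286, which is 2 such SDs, and Ccng2 lay just under it. This line is not a rare one. Of all genes past the filter, 11.6% lay at least as far from 0 as Igfbp1, and 12.2% as far as Ccng2. After the common median shift Igfbp1 came within 2 SDs at -0.25, and after lowess Trib1 did at 0.26 while Ccng2 and Pdk4 passed them at -0.35 and -0.31. Irs2 came within 1 SD after the common median shift, at -0.13, and Txnip came within it when the trend of differences on level was removed by lowess, at 0.14.

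**Figure D3:**
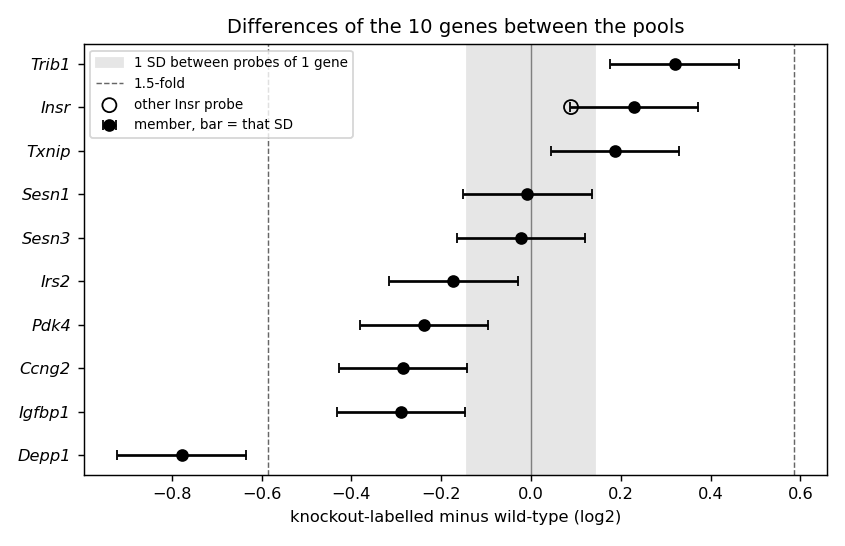
Knockout-labelled minus wild-type log2 difference of each gene; bars are the SD of 0.143 between probes of 1 gene, the grey band is the same SD around 0, dashed lines mark 1.5-fold and the open circle is the other Insr probe. Depp1 alone lies past 1.5-fold, and Sesn1 and Sesn3 lie inside the band.

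Igfbp1 encodes a secreted protein that binds insulin-like growth factors, is made mainly by liver and is switched off by insulin. Its level was 9.75 in wild-type and 9.46 in knockout-labelled RNA, so that it was 1.22-fold lower (-0.29). With genes divided into 10 equal bins by mean level, 2.43% of the 1192 genes in the bin of Igfbp1 had a lower difference. Among its family, which binds the same growth factors, Igfbp3 was also lower (-0.32) and Igfbp6 was at -0.20. Igfbp2 (0.02), Igfbp4 (0.09), Igfbp5 (0.20) and Igfbp7 (-0.02) lay nearer 0 or above it. Igfbp7 turned above 0 after the common median shift and Igfbp2 below 0 after lowess.

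Insr encodes the insulin receptor and Irs2 the docking protein that carries its signal to phosphatidylinositol 3-kinase in liver. FOXO raises both in fasting, and here they lay on opposite sides. Insr was at 9.70 in wild-type and 9.93 in knockout-labelled RNA, 1.17-fold higher (0.23). Its other probe was at 9.27 and 9.36, a difference of 0.09, so the probes agreed in sign and the mean over both was 0.16. Irs2 was at 7.40 and 7.23, 1.13-fold lower (-0.17). Irs1, the other main docking protein of liver, lay on the opposite side of 0 from Irs2, at 0.16. Of the receptors related to Insr, Igf1r and Insrr were both under the level filter, as was the docking protein Irs4.

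Sesn1 and Sesn3 encode sestrins, proteins that restrain the growth kinase mTORC1 and are induced by stress. Sesn1 was at 7.36 in wild-type and 7.35 in knockout-labelled RNA, and Sesn3 at 7.69 and 7.66. Their differences of -0.01 and -0.02 lay well within the probe SD and turned to 0.03 and 0.02 after the common median shift. Sesn2, the third sestrin, which is known as a target of the stress factor ATF4, was at 0.16.

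Depp1 encodes a protein that regulates autophagy and is one of the transcripts most closely tied to FOXO activity. Its level was 10.04 in wild-type and 9.27 in knockout-labelled RNA, 1.71-fold lower (-0.78). It ranked 9 from the lowest difference among 11924 genes. In its own level bin, 0.0839% of 1192 genes had a lower difference. The value was -0.74 after the common median shift and -0.82 after lowess.

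Ccng2 encodes cyclin G2, an unusual cyclin that holds cells out of division and falls when insulin or growth factors are present. It was at 7.42 in wild-type and 7.13 in knockout-labelled RNA, 1.22-fold lower (-0.29). In its level bin 3.86% of 1192 genes had a lower difference. Its relative Ccng1, a target of p53, was at 0.05 and turned below 0 after lowess, and Ccni was at -0.10.

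Txnip encodes a protein that binds thioredoxin and limits glucose uptake, and it is raised by glucose through the factor ChREBP as well as by FOXO. It was at 9.18 in wild-type and 9.37 in knockout-labelled RNA, 1.14-fold higher (0.19). Arrdc3, of the same alpha-arrestin family, lay the other way at 9.84 and 9.35, 1.41-fold lower (-0.50). Arrdc4, which ChREBP also controls, was at -0.15, Arrdc1 at -0.19 and Arrdc2 at 0.27. The Txnip difference was 0.68 above that of Arrdc3, which is the widest gap between a member and a relative of its family among the 25 such pairs compared.

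Pdk4 encodes a mitochondrial kinase that shuts off pyruvate dehydrogenase and so spares glucose in fasting. It was at 7.48 in wild-type and 7.24 in knockout-labelled RNA, 1.18-fold lower (-0.24). In its level bin 4.03% of 1192 genes had a lower difference. Pdk2, the other kinase of this family that is abundant in liver, was 1.19-fold higher (0.25), Pdk1 was at 0.04 and turned below 0 after lowess, and Pdk3 was under the level filter.

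Trib1 encodes a pseudokinase that brings the factor C/EBP-alpha to degradation and is known from the genetics of blood lipids. It was at 7.79 in wild-type and 8.11 in knockout-labelled RNA, 1.25-fold higher (0.32), the highest of the 10 differences. In its level bin 3.86% of 1193 genes had a higher difference. Its relatives Trib2 and Trib3 were at 0.18 and 0.03, and Trib3 turned below 0 after lowess.

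**Figure D4:**
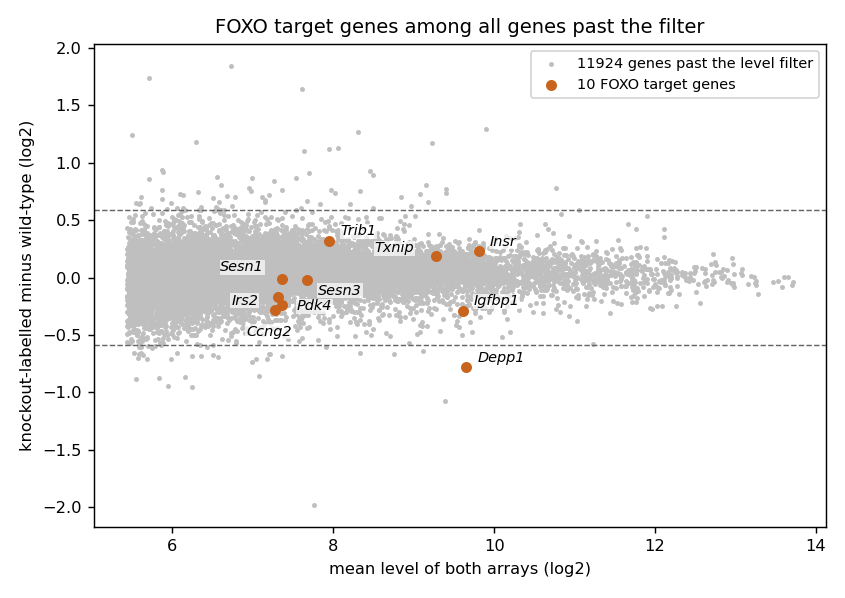
Knockout-labelled minus wild-type log2 difference against the mean log2 level of both arrays for 11924 genes past the level filter (grey) and the 10 FOXO target genes (orange); dashed lines mark 1.5-fold. Depp1 lies below nearly all genes at its level, and the other genes lie within the grey cloud. Igfbp1, Ccng2 and Pdk4 are toward its lower side and Trib1 is toward its upper side.

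The FOXO factors themselves were examined next, as their transcripts could differ between the pools. Foxo1, the main FOXO of liver, was at 7.63 in wild-type and 7.43 in knockout-labelled RNA (-0.20). Foxo3 was at 8.04 and 8.29 (0.25), Foxo4 at 7.03 and 7.20 (0.17) and Foxo6 at 6.18 and 6.34 (0.17). Foxo1 alone was on the lower side, and none reached 1.5-fold. The activity of FOXO proteins depends on phosphorylation, which these arrays do not measure.

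Of 30 other genes described as FOXO targets, 27 were measured and 26 passed the filter. Their median was 0.06, or 0.03 after lowess. Above 0 were 19 of the 26, or 15 after lowess, beside 59.5% of all genes before it. At least 1.5-fold lower was 1, beside 0.335% of all genes, and 0 were as much higher, beside 0.621%. The one lower gene was Bcl6, a repressor, at 8.75 and 6.77 (-1.98). G6pc, which releases free glucose, was at 11.63 and 12.16 (0.53), and Pck1, an early enzyme of glucose production, at 11.90 and 12.32 (0.42), both short of 1.5-fold. Fbxo32, a ubiquitin ligase of muscle wasting, was at -0.28.

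A list of insulin signalling genes ran from docking proteins through AKT to mTOR, with regulators of FOXO such as Sirt1. It had 23 members past the filter, of which 17 were above 0, beside 59.5% of all genes. The median was 0.10 and none was past 1.5-fold. After lowess 14 of the 23 were above 0 and the median was 0.04. The deacetylase Sirt1 was at 0.30, the kinase subunits Pik3r1 and Pik3cb at 0.29 and 0.19, and Irs1 at 0.16. The relatives of the 10 genes had 20 of 24 past the filter, 12 of them above 0, and a median of 0.04 that became -0.02 after lowess and -0.0037 without the filter.

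Other signals of the fasting and fed liver are known to act on some of these genes, so their targets were set beside them. Targets of PPAR-alpha, the fatty acid sensor that also raises Pdk4, had 10 of 13 above 0 and a median of 0.15. After lowess these were 9 of 13 and 0.11. The list included Ppara itself, at 0.20. Of all genes past the filter, 59.5% were above 0 before lowess. The thioesterase Acot2 was 1.68-fold and the lipase inhibitor Angptl4 1.56-fold higher, while Cpt1a, which admits fatty acids to mitochondria, was at 0.22 and Vnn1 at 0.21. Cyp4a14, Cyp4a10 and Fabp1 lay the other way at -0.19, -0.13 and -0.06, and Fgf21, at -0.32, was under the level filter. Targets of the glucocorticoid receptor, which also raises Igfbp1 and Pdk4, had 12 of 13 above 0, beside the same 59.5%, and a median of 0.34. The median was 0.27 after lowess, and the list included the gene of the receptor itself, Nr3c1, at 0.09. Lcn2 was 3.12-fold and Errfi1, a brake on the EGF receptor, 1.71-fold higher, and Mt2 and Per1 were at 0.45 and 0.43. Per1 lay at the level filter in wild-type RNA, at 5.44. Other targets differed less, with Tsc22d3 at 0.21, Tat at 0.12, Dusp1 at 0.10 and Tdo2 at -0.0009. The part of either signal in the values of the 10 genes was not tested.

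Genes raised by feeding and insulin had 7 of 14 above 0, beside 59.5% of all genes. Their median was 0.02, which became -0.0089 after lowess. Elovl6, a fatty acid elongase, was 1.56-fold higher and Thrsp, a lipogenic regulator, at 0.39, while the lipase Pnpla3 was at -0.36. Egfr was at 0.32.

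**Figure D5:**
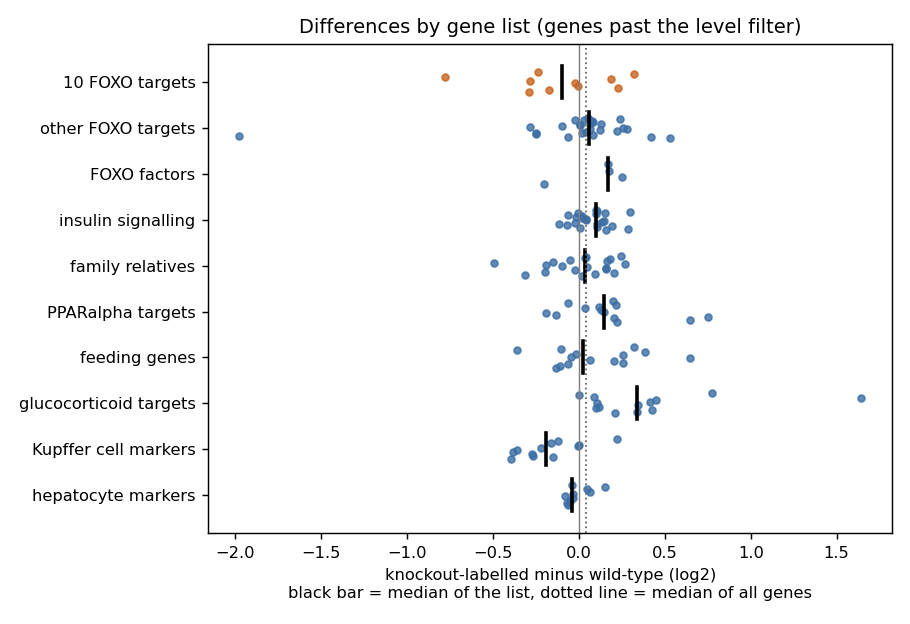
Knockout-labelled minus wild-type log2 difference of single genes past the level filter, by list; black bars are list medians and the dotted line is the median of all genes, 0.04. The 10 FOXO targets spread to both sides of 0 with a median of -0.10, and glucocorticoid receptor targets lie mostly above 0 with a median of 0.34.

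The tissue label was checked against markers. Of 12 hepatocyte markers 10 were measured, at wild-type levels of 10.68 to 13.74, with a median difference of -0.04 that became 0.0022 on bringing the arrays to that common median. Kupffer cell markers had 11 of 12 below 0 and a median of -0.19, with a summed level of 11.91 in wild-type and 11.73 in knockout-labelled RNA in log2 units. Adgre1, Marco, Lyz2 and Csf1r led them at -0.40, -0.38, -0.36 and -0.28. Clec4f was at -0.15, Cd5l at -0.0077, Timd4 at -0.0025 and C1qc, the only one above 0, at 0.22. After the common median shift 3 of the 12 were above 0 and the median was -0.15. Before it, 59.5% of all genes past the filter were above 0. In bulk RNA, fewer cells of a type and less RNA per cell cannot be told apart. The part of the Kupffer cell markers in the lower values of Depp1, Igfbp1, Ccng2, Pdk4 and Irs2 was not tested.

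Endothelial markers had 9 of 10 above 0, beside 59.5% of all genes, and a median of 0.12, or 7 of 10 and 0.07 after lowess. They summed to 11.73 and 11.86 in the same order, and the leading one, Gpr182, was at 0.50. Their part in the values of the 10 genes was not tested. Stellate cell markers had 5 of 10 above 0 and a median of -0.02, or 0.03 after the common median shift. Markers of bile duct, lymphocytes, blood cells, exocrine pancreas, and fat and muscle had 4, 4, 2, 2 and 6 members past the filter. Their medians were 0.21, -0.12, 0.07, 0.08 and -0.17 in that order. None of these genes was 1.5-fold apart, where only 0.621% of all genes were as much higher and 0.335% lower, so lists this short say little.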

How the data were processed

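Liver RNA, 300 ng per pool, was labelled with biotin and hybridised to Affymetrix arrays, 1 per pool. The authors deposited 1 log2 value per probe set and array. Per the submitters' processing notes, Affymetrix Expression Console 1.0, RMA and Partek 6.4 were used, with no order or role named. RMA subtracts background, equalises the distributions of the arrays and summarises several oligonucleotides per transcript. Its settings and the genome build were not given in the sources used here. No detection call comes with the values, so background cannot be read from them, and precision is limited by having 1 array per group.

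Of 28853 probes, the platform annotation gave 21789 1 gene symbol, 1621 several and 5443 none. Probes with 1 symbol were used, and the one with the highest mean represented a gene. All 10 members matched the GRCm38.p6 gene table by Entrez identifier with the same symbol, and no probe with several symbols named a member. The level filter was the 40th percentile of mean level. Calls were made at 1.5-fold, with no p-value. Levels of different probes entered the choice of a gene's probe, the level filter and bins, the lowess trend and the sums over markers. Outside these steps, levels of single genes were not compared with each other.

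The members, lists, motifs and naming rule were chosen with earlier results of these data known. All 10 members, the FOXO factors and up to 4 leading genes of each list are named, apart from marker lists other than that of Kupffer cells. Of the endothelial markers only Gpr182 is named, and of the remaining marker lists no gene is. For the Kupffer cell, PPAR-alpha and glucocorticoid lists, further genes with smaller or opposite differences are named too. Further relatives of the members are given as fixed in the lists. Alternatives were a common median, lowess with a span of 0.3, the mean over probes, no level filter, and a filter at the 60th percentile. Steps were tested on simulated data. Python 3.11.15, pandas 2.3.3 and statsmodels 0.14.6 were used.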

Additional observations from a re-analysis of the deposited data

How the results depend on the processing

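No paired analysis was possible because each group holds 1 array. Of 90 values recomputed under the alternatives, 80 kept their sign and stayed within the probe SD of 0.143 or, for counts, by at most 1.5 times. Part of this was fixed in advance, so the number kept is no measure of precision. All 10 members pass every filter, so a change of filter cannot alter their counts or median. The common median shift adds 0.04, less than the probe SD, so it can turn the sign of a difference but not move it past that SD. The number of members above 0 went from 3 to 5 after the common median shift, through Sesn1 at 0.033 and Sesn3 at 0.018. That shift adds the same amount to every gene. The median of the family relatives turned to -0.015 after lowess and -0.0037 without the level filter, and that of the feeding genes to -0.0089 after lowess. These medians lay near 0 in all settings. Without the filter the counts past 1.5-fold were 153 higher and 133 lower, and with the filter at the 60th percentile 41 and 14, since the number of genes counted changes from 11924 to 19938 and 7877. Depp1 was past 1.5-fold in every setting run. Its value could change only with the common median shift and with lowess, where it was -0.74 and -0.82. The mean over probes could move Insr alone among the members, since the other 9 have 1 probe. None of the alternatives stands in for replicate animals.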
